A study of Homo sapiens with 16 samples.

Results

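The 44 genes described here encode the actin cytoskeleton and its anchorage at focal adhesions: the 2 cytoplasmic actins, the transcription factor SRF with its coactivator MRTFA, proteins of the adhesion plaque, filament bundlers, tropomyosins and other side-binders, non-muscle myosin II, monomer-binding proteins, and factors that sever, cap or nucleate filaments. They were taken as a named list by function, and the list was chosen with earlier results of these data known. All 44 were found among 35052 genes with a matched transcript, and 43 of them were among the 17559 genes with enough reads to be tested. The exception was CALD1 (caldesmon), which had at most 10 reads in any of the 16 libraries and is given no comparison. RNA was sequenced from K562, an established human chronic myeloid leukaemia line of erythroid and megakaryocytic potential, of genotype WT in every group. Cells were cultured with 25 nM phorbol 12-myristate 13-acetate (PMA), a protein kinase C activator that drives these cells towards the megakaryocyte lineage, with 2 libraries at each of 8 time points: 0, 0.5 and 1.5 h, then 3 and 6 h, and finally 24, 48 and 72 h. The 0 h cells are the only controls, and the labels name no vehicle group and no untreated group of the same age. Medium was replaced after 24 and 48 h, so at the later times PMA, age of the culture and fresh medium cannot be told apart. The labels do not say whether the 2 libraries of a time point came from separate cultures, and p-values then measure only the spread between these libraries, which may be technical.

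Actin filaments grow from monomers that are held in reserve by profilin and the thymosins, are severed and recycled by cofilin and its partners, and are joined to integrins at focal adhesions through talin, vinculin, filamin, zyxin and paxillin. Non-muscle myosin II pulls on these filaments after myosin light chain kinase has phosphorylated its regulatory light chain. When the pool of free actin monomers shrinks, MRTFA is released from actin, enters the nucleus and activates SRF at CArG boxes, which many actin and actin-binding genes carry in their promoters. In megakaryocytes this machinery is known for shaping cytoplasmic extensions and for the spreading and contraction of platelets.

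RefSeq promoter windows (GRCh38.p14, from 250 bases before to 50 bases after an annotated start) were available for 41 of the 44 genes, in 80 windows because some genes have several starts. The strict form of the CArG box, which reads as the same motif on both strands, was the one motif searched. It was present in 7 of these 80 windows (8.75%), and in 454 of all 35116 windows in the table (1.29%). Counted by gene, 7 of 41 members (17.1%) held a box in at least 1 window, beside 438 of all 27305 genes (1.60%). The 7 genes were SRF, ACTG1, TPM4, MYLK, CNN2, FLNA and ACTN1. The 250 bases before the start are printed 5′ to 3′ on the gene's strand, with the box in capitals, for SRF itself and for the 4 members whose RNA moved most differently: ACTG1 rose and fell back, TPM4 and MYLK rose and remained high, and CNN2 fell.
SRF, chr6:43171019-43171268, plus strand, boxes beginning at -30 and -10 from the start: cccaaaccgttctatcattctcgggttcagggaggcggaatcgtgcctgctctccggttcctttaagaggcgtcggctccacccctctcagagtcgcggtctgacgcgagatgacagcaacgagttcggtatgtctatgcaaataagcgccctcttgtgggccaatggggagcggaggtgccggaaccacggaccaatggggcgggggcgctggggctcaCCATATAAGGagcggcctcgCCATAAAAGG
ACTG1, chr17:81512800-81513049, minus strand, box at -94: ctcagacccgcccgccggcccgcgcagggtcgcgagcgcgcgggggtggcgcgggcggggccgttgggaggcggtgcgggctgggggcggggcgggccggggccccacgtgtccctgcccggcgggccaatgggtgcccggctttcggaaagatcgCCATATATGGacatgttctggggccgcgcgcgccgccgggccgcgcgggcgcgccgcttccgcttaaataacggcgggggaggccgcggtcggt
TPM4, chr19:16067288-16067537, plus strand, box at -173: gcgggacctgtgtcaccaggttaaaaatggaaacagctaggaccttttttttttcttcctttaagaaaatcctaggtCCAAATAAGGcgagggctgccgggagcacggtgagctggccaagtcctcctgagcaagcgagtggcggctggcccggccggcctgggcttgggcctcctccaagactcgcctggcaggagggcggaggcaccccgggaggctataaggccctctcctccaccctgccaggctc
MYLK, chr3:123620549-123620798, minus strand, box at -94: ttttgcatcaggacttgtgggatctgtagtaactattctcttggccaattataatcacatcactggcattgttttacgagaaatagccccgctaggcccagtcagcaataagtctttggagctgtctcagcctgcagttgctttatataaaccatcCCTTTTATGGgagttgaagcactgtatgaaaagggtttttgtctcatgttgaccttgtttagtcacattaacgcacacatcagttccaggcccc
CNN2, chr19:1026358-1026607, plus strand, box at -89: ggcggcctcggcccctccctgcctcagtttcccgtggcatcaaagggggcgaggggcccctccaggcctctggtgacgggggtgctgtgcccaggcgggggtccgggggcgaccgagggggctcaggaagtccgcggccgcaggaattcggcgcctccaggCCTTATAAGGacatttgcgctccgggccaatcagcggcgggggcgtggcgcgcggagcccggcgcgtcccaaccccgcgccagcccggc
The SRF window lies just before the 5′ end of the single SRF transcript with reads (43171299). The TPM4 window belongs to the most upstream of several TPM4 starts, and the MYLK window lies inside the gene, far downstream of the start of its longest transcripts. These boxes are matches of letters in a window. Binding of SRF was not measured.

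Depth ran from 27285773 to 54056289 reads per library, and 96.25 to 96.99% of them belonged to transcripts matched to a gene. Levels are given as CPM, a gene's reads per 1000000 reads of the library after TMM scaling, for one gene across libraries, and as TPM, which is also divided by transcript length, wherever genes are compared with each other. Changes are log2 fold changes of CPM with a standard error (SE). The SE was derived from the test, as the change without the prior count divided by the square root of the test's F. A gene was called when its p from edgeR's quasi-likelihood test, adjusted by Benjamini-Hochberg over all 17559 genes, was under 0.05. With 2 libraries in each group an exact permutation test gives no p under 0.333, so each call rests on the model of the fit. That model joins a gene's own spread between libraries, taken over all time points in the fit, with a spread shared across genes. Between the 2 libraries of a time point the members differed by a median of 0.05 (0.5 h) to 0.25 (3 h) on the log2 scale. The 2 libraries at 0 h differed along gene GC content, with r = 0.73 across 9975 genes, which are not independent replicates. The 0.5 h and 1.5 h changes also followed GC content, with r = -0.76 and r = -0.43, and the later changes less, with r from -0.17 to -0.02. Whether the difference between the 0 h libraries gave rise to this was not tested. The tested members had a median GC content of 55.1%, and all tested genes 49.1%.

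The list as a whole was quiet at 0.5 h and mostly higher from 3 h onward. At 0.5 h no member was called by edgeR (background 0.165% of all genes higher and 0.0057% lower), although 5 had an unadjusted p under 0.05 and DESeq2 also called 0. Without the first 0 h library 5 members were called, 1 higher and 4 lower, beside 10.8% and 9.13% of all genes. At 1.5 h, 8 members were higher and 2 lower (background 9.05% and 8.05%), and at 3 h 26 were higher and 2 lower (21.5% and 20.5%). At 6 h the counts were 32 higher and 3 lower (27.8% and 29.4%), and at 24 h 30 higher and 4 lower (31.7% and 26.6%). At 48 h 32 were higher and 1 lower (30.2% and 24.1%), and at 72 h 31 were higher and 2 lower (31.7% and 26.9%). So the members moved upward in far larger share than the background from 3 h, and downward in smaller share. Their median change was 0.44 at 3 h. It was 0.88 at 6 h, 0.94 after a day and 0.85 at the end, while the median over all tested genes stayed between -0.03 and 0.00. Over the whole course 40 members differed among the 8 time points (background 82.9%), so that count lies near what most genes show. A bulk measurement cannot tell fewer cells of a type from less RNA per cell, and this holds for every change below.

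**Figure D1:**
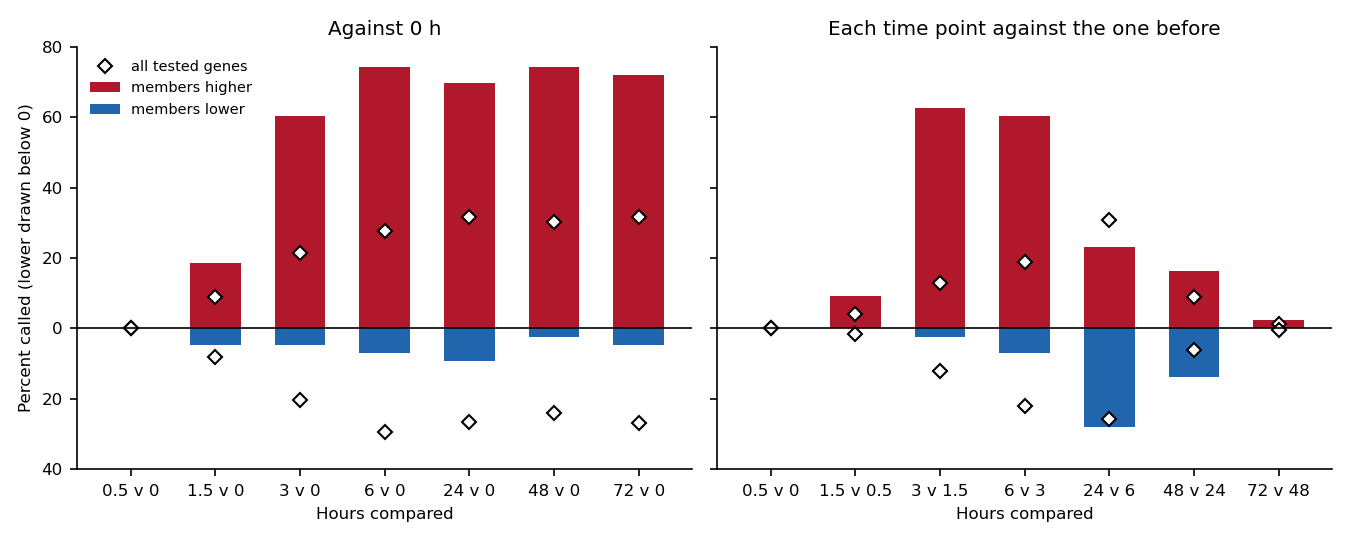
Percent of the 43 tested members called higher (red, above 0) and lower (blue, below 0) at an edgeR adjusted p under 0.05, against 0 h at left and against the preceding time point at right; open diamonds give the same percent for all 17559 tested genes. Members called higher reach 32 of 43 at 6 h and 48 h, and 12 of 43 were called lower from 6 to 24 h.

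The steps between neighbouring times placed most of the rise in the interval from 1.5 to 6 h. From 0.5 to 1.5 h 4 members rose and 0 fell (background 4.11% and 1.67%): ACTG1, ZYX, TPM4 and WDR1. From 1.5 to 3 h 27 rose and 1 fell (13% and 12.1%), and from 3 to 6 h 26 rose and 3 fell (19% and 22.1%). From 6 to 24 h 10 rose and 12 fell (30.8% and 25.8%), near the shares of all genes. After removal of a GC trend per library that step held 10 higher and 19 lower, beside 29.6% and 33.4% of all genes. From 24 to 48 h 7 rose and 6 fell (8.88% and 6.12%). From 48 to 72 h MYLK alone rose and 0 fell (1.14% and 0.325%), and DESeq2 likewise called 1. The mean level was highest at 6 h for 15 of the 43 tested members (34.9%, against 19.4% of all genes). It was highest at 24 h for 11 (25.6%, against 13.8%) and at 72 h for 9 (20.9%, against 15.7%). At 0 h it was highest for 1 (2.33%, against 16.6%).

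When libraries were scaled to their total counts in place of TMM, the median of all genes itself moved, by -0.12 (1.5 h), -0.28 (3 h), -0.35 (6 h) and -0.26 (24 h), and by -0.19 at the end of the course. On that scale 8 members were higher and 6 lower at 1.5 h, beside 6.97% and 14.8% of all genes, so the lower count was near the background. At 3 h 17 were higher and 6 lower (13.4% and 35.5% of all genes), and at 6 h 27 and 7 (18.3% and 42.1%). The step from 6 to 24 h became 17 higher and 11 lower (35.5% and 18.7%), the next step 11 and 5 (11.003% and 4.10%), and 72 h against 6 h 18 and 7 (38.9% and 16.3%). Of the 173 calls of members against 0 h, 140 remained under every alternative analysis run, 33 were lost under at least 1, and 1 of these changed sign. Several of the lost calls are named beside the genes below.

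**Figure D2:**
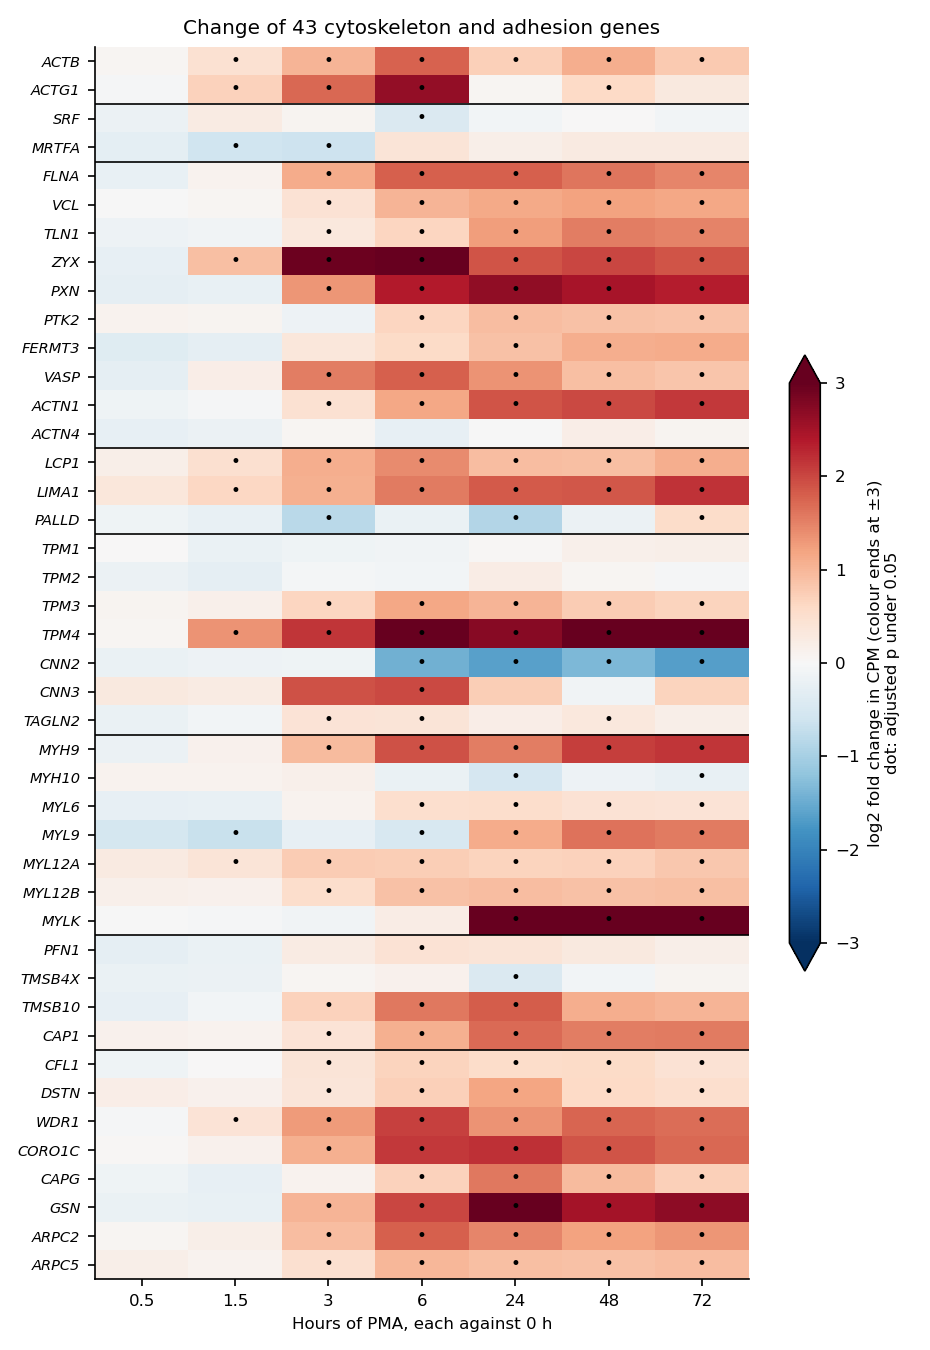
Log2 fold change in CPM of the 43 tested members (rows, ordered and ruled off by role) at each time against 0 h (columns); the colour ends at ±3 and a dot marks an edgeR adjusted p under 0.05. Most rows turn red from 3 h, CNN2 turns blue from 6 h, and MYLK is dark from 24 h only.

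Both cytoplasmic actins rose within 1.5 h, peaked at 6 h and then parted, with ACTB staying above its starting level and ACTG1 back near it at 24 h and higher again at 48 h. ACTB (ENSG00000075624, chr7:5527147-5563784, minus strand) encodes beta-actin. Its replicate 1 and replicate 2 libraries read 1786 and 2065 at 0 h, 2035 and 1991 at 0.5 h, 2651 and 2630 at 1.5 h, 4368 and 3433 at 3 h, 6539 and 6664 at 6 h, 3001 and 3323 at 24 h, 3946 and 4192 at 48 h, 3186 and 3437 at 72 h in CPM. Every library from 1.5 h onward lay above both 0 h libraries, and the 6 h pair was the highest. The change was 0.46 ± 0.12 (SE) at 1.5 h (adjusted p = 0.0214), 1.78 ± 0.12 at 6 h (adjusted p = 3.1e-08) and 0.78 ± 0.12 at 72 h (adjusted p = 7.9e-05). The 1.5 h call was lost without the first 0 h library or without either 1.5 h library.

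ACTG1 (ENSG00000184009, chr17:81509971-81523847, minus strand) encodes gamma-actin, which differs from beta-actin in a few residues near its N-terminus. In CPM it read 858 and 1058 at 0 h, 929 and 948 at 0.5 h, 1552 and 1522 at 1.5 h, 3576 and 2703 at 3 h, 5894 and 6016 at 6 h, 938 and 1052 at 24 h, 1422 and 1500 at 48 h, 1131 and 1205 at 72 h. The 6 h libraries were far above all others, while the 24 h pair fell inside the range of the 0 h pair. It was called higher at 1.5 h (0.68 ± 0.13, adjusted p = 0.00422), a call lost when counts were derived from TPM. Gamma-actin RNA was 6.22-fold its 0 h level at 6 h (2.64 ± 0.14 on the log2 scale, adjusted p = 2.1e-09), fell by 2.58 between 6 and 24 h (adjusted p = 7.2e-09), and at 24 h stood 0.05 ± 0.13 from 0 h (adjusted p = 0.74). It rose again by 0.55 ± 0.13 from 24 to 48 h (adjusted p = 0.0126), to 0.61 ± 0.13 from 0 h (adjusted p = 0.00149). At 72 h it stood 0.29 ± 0.13 from 0 h (adjusted p = 0.0789), which missed the threshold although both libraries lay above both at 0 h.

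The balance of the 2 actins, measured per length, had turned over in both libraries by 6 h. By TPM the ratio of ACTB to ACTG1 was 1.82 and 1.39 in the 2 libraries at 0 h. At 3 h the ratio was 1.07 and 0.807, so the libraries lay on either side of 1. It was 0.957 and 0.699 in the 6 h pair and 2.64 and 2.07 in the 24 h pair. The pairs at 0, 6 and 24 h did not overlap. By TPM ACTG1 led in both 6 h libraries and in no library at 0 h or 24 h. In CPM, without division by length, ACTB was the higher in both 6 h libraries (6539 and 6664, against 5894 and 6016 for ACTG1). The order of the 2 actins at 6 h therefore depends on the division by transcript length. The ACTG1 libraries at 6 h differed more in TPM (5276 and 6996) than in CPM. Together the 2 actins summed to 2678 and 3141 TPM at 0 h and 10320 and 11880 TPM at 6 h. In the order of mean TPM among the 44 genes, ACTB (1777), ACTG1 (1132), TMSB10 (1119) and TMSB4X (967) led at 0 h, and ACTG1 (6136), ACTB (4967) and TMSB10 (2793) led at 6 h. The neighbours ACTG1 and TMSB10 at 0 h lay within their spread (SD 257 and 104 TPM, n = 2). At 72 h the order was ACTB (3217), TMSB10 (2462), ACTG1 (1581) and TMSB4X (1101).

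**Figure D3:**
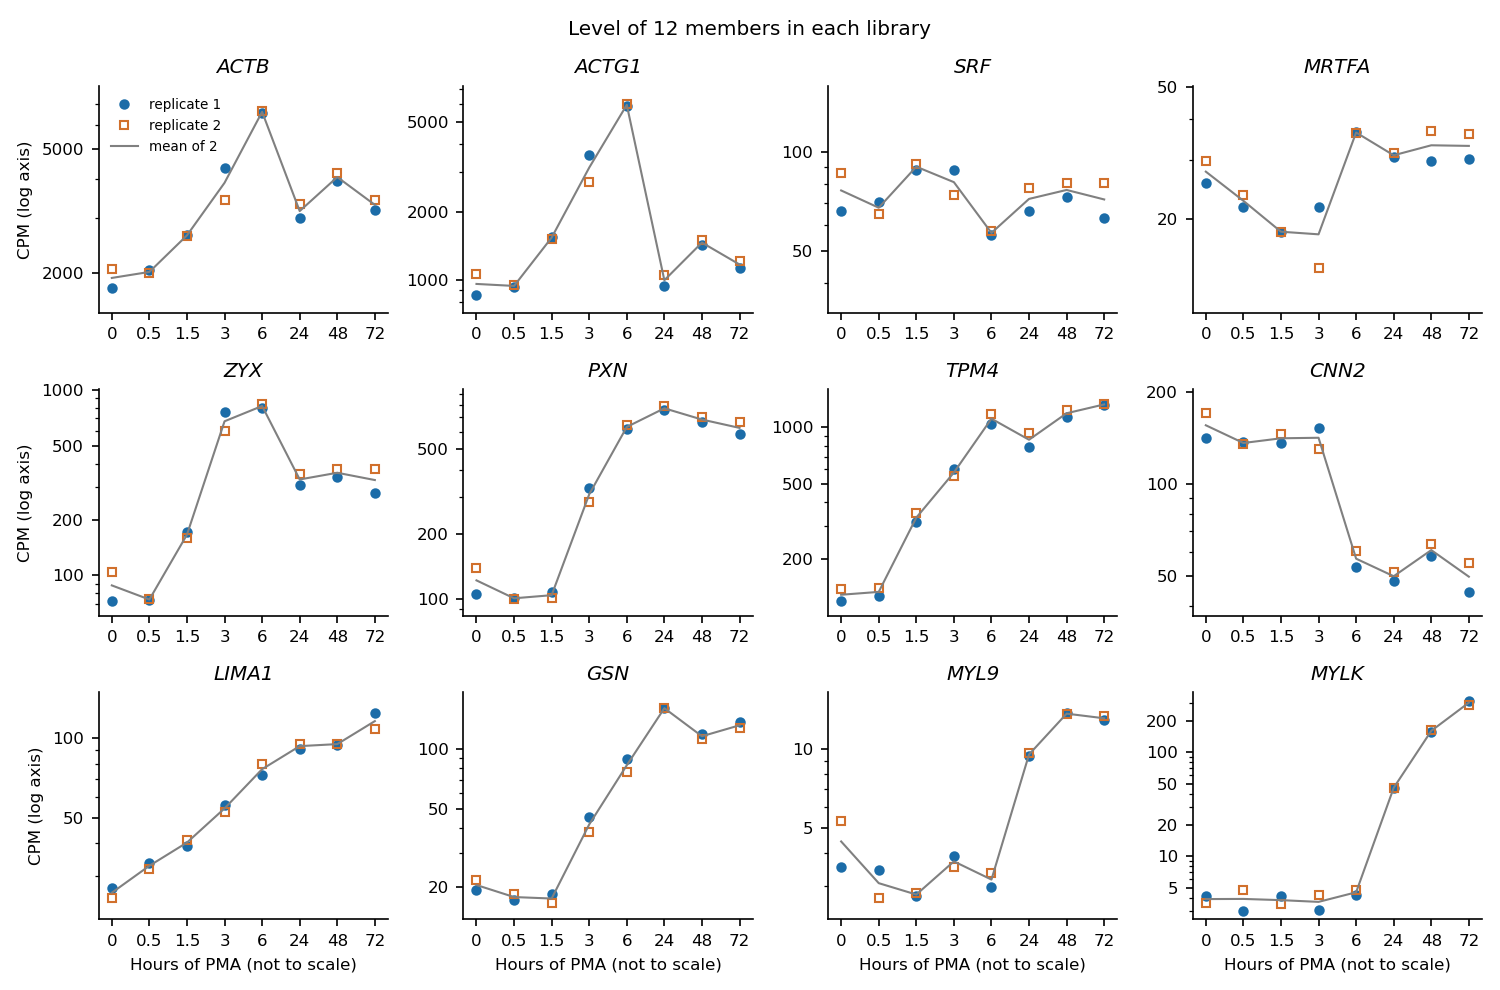
CPM (log axis) of 12 members in each library by time of PMA, with filled circles for replicate 1, open squares for replicate 2 and a line through their mean. ACTB and ACTG1 are highest at 6 h, SRF stays within a narrow range, CNN2 drops between 3 and 6 h, and MYLK rises after 6 h.

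SRF and MRTFA, the transcription factor and coactivator through which actin genes are regulated, were at no time called higher than at 0 h, although MRTFA rose from 3 to 6 h, as both actins did. SRF (ENSG00000112658, chr6:43171299-43181507, plus strand) read 66.2 and 86.4 at 0 h, 70.4 and 65.0 at 0.5 h, 88.3 and 91.8 at 1.5 h, 87.8 and 73.9 at 3 h, 56.1 and 57.6 at 6 h, 66.1 and 77.8 at 24 h, 73.0 and 80.2 at 48 h, 63.1 and 80.3 at 72 h in CPM. Only the 6 h libraries were both below both 0 h libraries, and SRF was called at that time alone, -0.43 ± 0.14 (adjusted p = 0.0215). That call was lost after a GC trend was removed (adjusted p up to 0.244 over the alternatives), in a fit of the 2 times alone, and without 0 h replicate 2 or either 6 h library.

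MRTFA (ENSG00000196588, chr22:40410281-40636702, minus strand) binds actin monomers and carries the signal of their depletion to SRF. Its CPM values were 25.7 and 29.8 at 0 h, 21.7 and 23.5 at 0.5 h, 18.3 and 18.3 at 1.5 h, 21.6 and 14.2 at 3 h, 36.5 and 36.4 at 6 h, 30.7 and 31.5 at 24 h, 29.8 and 36.8 at 48 h, 30.3 and 36.0 at 72 h. The 1.5 and 3 h libraries were all below those at 0 h, and the 6 h pair was above them. MRTFA fell by 0.60 at 1.5 h (adjusted p = 0.0264) and by 0.63 at 3 h (adjusted p = 0.00816), then rose by 1.02 ± 0.17 from 3 to 6 h (adjusted p = 2.4e-04). The 1.5 h call did not hold without 0 h replicate 2 or either 1.5 h library, and the 3 h call did not hold without 0 h replicate 2 or 3 h replicate 2 (adjusted p up to 0.285). Exons of MRTFA overlap SGSM3 on the opposite strand, and the sources do not state whether counting used the strand, so reads of the 2 genes cannot be told apart there.

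Adhesion plaque genes rose as a group: of 10, 1 was called higher at 1.5 h, 7 at 3 h and 9 at each of 6, 24 and 72 h, with 0 lower at these times, beside 31.7% of all genes higher at 72 h. The exception was ACTN4 (alpha-actinin 4), which had no call against 0 h and stayed between -0.24 and 0.21. ZYX (ENSG00000159840, chr7:143381080-143391111, plus strand), zyxin, a LIM protein that moves to strained filaments, led the group early. Its CPM values were 72.8 and 104 at 0 h, 74.0 and 74.5 at 0.5 h, 172 and 160 at 1.5 h, 756 and 596 at 3 h, 796 and 838 at 6 h, 305 and 352 at 24 h, 340 and 374 at 48 h, 278 and 375 at 72 h. All libraries from 1.5 h lay above both at 0 h, and the 3 and 6 h libraries stood above all later ones. The change was 0.91 ± 0.17 at 1.5 h (adjusted p = 0.00386) and 3.21 ± 0.19 at 6 h (adjusted p = 5.0e-09), a 9.24-fold rise, followed by a fall of 1.31 from 6 to 24 h (adjusted p = 2.6e-05).

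PXN (ENSG00000089159, chr12:120210439-120265771, minus strand) encodes paxillin, the adaptor on which focal adhesion kinase and vinculin assemble. It read 105 and 139 at 0 h, 102 and 100 at 0.5 h, 108 and 101 at 1.5 h, 330 and 284 at 3 h, 620 and 643 at 6 h, 754 and 788 at 24 h, 668 and 699 at 48 h, 583 and 668 at 72 h in CPM. Paxillin RNA did not exceed its 0 h range until 3 h and then remained above it. It was higher by 2.66 ± 0.13 at 24 h (adjusted p = 1.0e-09) and by 2.35 ± 0.13 at 72 h (adjusted p = 2.8e-09), the largest rise of the group at that time. FLNA (ENSG00000196924, chrX:154348524-154374638, minus strand), filamin A, which crosslinks filaments and binds integrin tails, had the highest TPM of the group from 1.5 h onward, while ACTN4 was above it at 0 and 0.5 h. Filamin A read 1104 and 1291 at 0 h, 1071 and 983 at 0.5 h, 1329 and 1231 at 1.5 h, 2999 and 2165 at 3 h, 4278 and 4051 at 6 h, 4140 and 4189 at 24 h, 3699 and 3600 at 48 h, 3336 and 3311 at 72 h in CPM. From 3 h all its libraries were above those at 0 h, by 1.80 ± 0.14 at 6 h (adjusted p = 8.3e-08) and 1.47 ± 0.14 at 72 h (adjusted p = 5.8e-07).

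The other plaque genes followed 2 courses. VASP, an elongation factor found at filament tips, rose early (1.79 ± 0.13 at 6 h) and declined (0.83 ± 0.13 at 72 h). TLN1 (talin 1), ACTN1 (alpha-actinin 1) and FERMT3 (kindlin 3, the blood-cell integrin activator) rose later and stayed high, with changes of 1.24 ± 0.11, 1.89 ± 0.10 and 0.88 ± 0.13 at 24 h and of 1.48 ± 0.11, 2.12 ± 0.10 and 1.12 ± 0.13 at 72 h. TLN1, ACTN1 and FERMT3 had no called step between neighbouring times after 24 h, whereas VASP was called lower from 24 to 48 h (-0.44). VCL (vinculin) and PTK2 (focal adhesion kinase) reached 1.16 ± 0.10 and 0.85 ± 0.08 at 72 h. The alpha-actinins shifted as a pair: the TPM ratio of ACTN1 to ACTN4 was 0.213 and 0.212 at 0 h and 0.712 and 0.819 at 72 h, with no overlap. Reads of VCL, TLN1 and FERMT3 could include those of AP3M1, CREB3 and TRPT1, whose exons overlap on the other strand.

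The 3 bundling and scaffold genes differed from one another. LIMA1 (ENSG00000050405, chr12:50175788-50283546, minus strand) encodes EPLIN, which stabilises filaments. In CPM it read 27.2 and 24.8 at 0 h, 33.8 and 31.9 at 0.5 h, 39.2 and 41.3 at 1.5 h, 55.9 and 52.5 at 3 h, 72.5 and 80.2 at 6 h, 91.4 and 95.4 at 24 h, 94.7 and 95.5 at 48 h, 124 and 108 at 72 h. Both libraries at every time from 0.5 h lay above those at 0 h, and the change grew from 0.63 ± 0.10 at 1.5 h (adjusted p = 7.1e-04) to 2.16 ± 0.10 at 72 h (adjusted p = 3.1e-10). LCP1 (ENSG00000136167, chr13:46125920-46211871, minus strand), L-plastin, the bundler of blood cells, read 387 and 386 at 0 h, 436 and 444 at 0.5 h, 524 and 560 at 1.5 h, 868 and 779 at 3 h, 1009 and 1045 at 6 h, 710 and 768 at 24 h, 709 and 728 at 48 h, 906 and 749 at 72 h in CPM. It peaked at 6 h (1.41 ± 0.10, adjusted p = 5.3e-08) and was 1.098 ± 0.103 at 72 h (adjusted p = 6.3e-07). Its call at 1.5 h (0.49 ± 0.10) was lost without 1.5 h replicate 2.

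PALLD (ENSG00000129116, chr4:168497066-168928457, plus strand), palladin, a stress fibre scaffold, was sparse, with 46 to 135 reads per library. Palladin read 2.49 and 2.90 at 0 h, 2.56 and 2.32 at 0.5 h, 2.66 and 1.96 at 1.5 h, 1.56 and 1.50 at 3 h, 2.26 and 2.41 at 6 h, 1.58 and 1.37 at 24 h, 2.38 and 2.40 at 48 h, 3.71 and 4.22 at 72 h in CPM. The 3 and 24 h libraries were below both at 0 h, and the 72 h libraries above. It fell by 0.81 at 3 h (adjusted p = 0.00522) and by 0.87 at 24 h (adjusted p = 0.00208), and was higher by 0.56 ± 0.19 at 72 h (adjusted p = 0.0224). The 72 h call was lost under 9 of the alternatives, among them DESeq2, total-count scaling and leaving out 0 h replicate 1 or 72 h replicate 2 (adjusted p up to 0.134). Exons of CBR4 overlap it on the opposite strand.

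Tropomyosins, which lie along filaments and set which myosins and severing proteins may bind, changed in make-up more than in number of genes. Of the 8 side-binder genes 7 were tested, and at 72 h 2 were higher, 1 was lower and 4 were not called, beside 31.7% and 26.9% of all genes. TPM4 (ENSG00000167460, chr19:16067021-16103005, plus strand), a non-muscle tropomyosin of platelets, read 121 and 139 at 0 h, 128 and 141 at 0.5 h, 315 and 350 at 1.5 h, 599 and 553 at 3 h, 1039 and 1179 at 6 h, 789 and 929 at 24 h, 1134 and 1236 at 48 h, 1316 and 1323 at 72 h in CPM. Its libraries separated from 0 h at 1.5 h and never returned. The rise was 1.35 ± 0.12 at 1.5 h (adjusted p = 5.6e-06), 3.09 ± 0.12 at 6 h (adjusted p = 1.3e-10) and 3.34 ± 0.13 at 72 h (adjusted p = 5.2e-11), which is 10.1-fold.

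TPM3 (ENSG00000143549, chr1:154155304-154194648, minus strand) had the highest TPM of the role up to 24 h, and TPM4 at 48 and 72 h. In CPM it read 361 and 366 at 0 h, 380 and 393 at 0.5 h, 393 and 422 at 1.5 h, 594 and 540 at 3 h, 766 and 851 at 6 h, 694 and 782 at 24 h, 586 and 650 at 48 h, 587 and 574 at 72 h. It rose by 1.15 ± 0.10 at 6 h (adjusted p = 2.4e-07) and was still higher by 0.67 ± 0.10 at 72 h (adjusted p = 4.5e-05). Its processed pseudogenes held 3.1 to 7.6% of the reads of gene and copies together, and these could be shared between them. TPM1 and TPM2 had no call at any time against 0 h, with changes from -0.19 to 0.19 and from -0.28 to 0.22. As a share of the TPM of the 4 tropomyosin genes, TPM4 went from 17.7 and 19.1% at 0 h to 57.3 and 57.1% at 72 h, and TPM3 from 72.0 and 69.6% to 38.7 and 38.8%. TPM4 was thus the smaller share in every library up to 24 h and the larger in all 4 libraries at 48 and 72 h.

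CNN2 (ENSG00000064666, chr19:1026581-1039068, plus strand), calponin 2, which restrains myosin on the filament, was the one gene of the list called lower at 6, 24, 48 and 72 h alike. Calponin 2 read 141 and 170 at 0 h, 137 and 135 at 0.5 h, 136 and 146 at 1.5 h, 153 and 131 at 3 h, 53.5 and 60.5 at 6 h, 48.3 and 51.6 at 24 h, 58.1 and 63.5 at 48 h, 44.5 and 55.1 at 72 h in CPM. No library from 6 h onward reached the lowest of the first 8 libraries. It fell by 1.31 from 3 to 6 h (adjusted p = 2.1e-06) and stood -1.64 ± 0.13 from 0 h at 72 h (adjusted p = 8.5e-08). CNN3 (calponin 3) had 1 to 15 reads per library. It was called only at 6 h (1.97 ± 0.77, adjusted p = 0.0384), with 4 and 3 reads at 0 h against 8 and 15, and DESeq2 did not call it. TAGLN2 (transgelin 2) changed little, 0.39 ± 0.11 at 6 h, a call lost without 0 h replicate 1.

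The non-muscle myosin II role held 7 genes, with the kinase that switches the motor on counted among them. At 72 h 6 were called higher and 1 lower, beside 31.7% and 26.9% of all genes. The kinase gene, counted over all its transcripts, had the largest rise of all members. MYLK (ENSG00000065534, chr3:123610049-123884331, minus strand) encodes myosin light chain kinase. Its CPM values were 4.17 and 3.57 at 0 h, 2.98 and 4.79 at 0.5 h, 4.12 and 3.45 at 1.5 h, 3.07 and 4.21 at 3 h, 4.23 and 4.78 at 6 h, 45.4 and 45.6 at 24 h, 158 and 164 at 48 h, 313 and 286 at 72 h. The first 10 libraries held 99 to 167 reads each with no trend, whereas the 72 h libraries held 11240 and 9163. The rise was 3.55 ± 0.18 at 24 h (adjusted p = 1.5e-09), 5.37 ± 0.19 at 48 h (adjusted p = 3.1e-11) and 6.27 ± 0.20 at 72 h (adjusted p = 7.8e-12), a 77.2-fold difference. The step from 48 to 72 h was 0.90 ± 0.15 (adjusted p = 0.00937), and leaving out 48 h replicate 1, 48 h replicate 2 or 72 h replicate 1 ended that call.

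MYL9 (ENSG00000101335, chr20:36541484-36551447, plus strand), a regulatory light chain that this kinase phosphorylates, moved in both directions. Its CPM values were 3.56 and 5.31 at 0 h, 3.46 and 2.69 at 0.5 h, 2.75 and 2.82 at 1.5 h, 3.89 and 3.56 at 3 h, 2.99 and 3.36 at 6 h, 9.39 and 9.63 at 24 h, 13.7 and 13.6 at 48 h, 12.8 and 13.3 at 72 h. The libraries at 1.5 and 6 h lay below both at 0 h, and those from 24 h lay above all earlier ones. It fell by 0.67 at 1.5 h (adjusted p = 0.0284) and by 0.48 at 6 h (adjusted p = 0.0462), and rose by 1.102 ± 0.180 at 24 h (adjusted p = 1.4e-04) and 1.56 ± 0.18 at 72 h (adjusted p = 5.0e-06). The early falls rest on a 0 h pair that differed more for MYL9 than for any other member. Removing 0 h replicate 2 ended both, and the 6 h call was lost under 11 alternatives, DESeq2 among them (adjusted p up to 0.511). The late rises were kept.

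MYL6 (ENSG00000092841, chr12:56158161-56163496, plus strand), the essential light chain, had the highest TPM of the role. In CPM it read 191 and 240 at 0 h, 185 and 180 at 0.5 h, 186 and 181 at 1.5 h, 259 and 208 at 3 h, 310 and 302 at 6 h, 307 and 316 at 24 h, 299 and 287 at 48 h, 317 and 256 at 72 h. All libraries from 6 h lay above both at 0 h, with a change of 0.51 ± 0.13 at 6 h (adjusted p = 0.00403) and 0.41 ± 0.13 at 72 h (adjusted p = 0.0142). The 72 h call was lost without 0 h replicate 1 or 72 h replicate 1. MYL6 shares exons with MYL6B on its own strand and with SMARCC2 on the other, so its counts are uncertain.

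The heavy chains went apart. MYH10 (ENSG00000133026, chr17:8474205-8630761, minus strand), the chain of myosin IIB, read 147 and 152 at 0 h, 164 and 161 at 0.5 h, 154 and 170 at 1.5 h, 168 and 165 at 3 h, 122 and 139 at 6 h, 105 and 106 at 24 h, 131 and 137 at 48 h, 130 and 128 at 72 h in CPM. Both 24 h libraries were the lowest of the course, at -0.50 ± 0.09 from 0 h (adjusted p = 2.0e-04). Its call at 72 h (-0.22 ± 0.09, adjusted p = 0.0425) was lost under 9 alternatives, DESeq2 and each left-out library among them, and the sign turned (0.09) when counts were derived from TPM. MYH9, the chain of myosin IIA, rose by 1.90 ± 0.12 at 6 h and 2.13 ± 0.12 at 72 h. The TPM ratio of MYH9 to MYH10 was 1.45 and 1.80 at 0 h and 6.31 and 5.52 at 72 h. The light chains MYL12A and MYL12B were higher by 0.80 ± 0.11 and 0.90 ± 0.13 at 72 h.

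Of the 4 monomer-binding genes, CAP1 and TMSB10 rose most, PFN1 was called higher once, and TMSB4X was not called higher at any time against 0 h. CAP1 (ENSG00000131236, chr1:40040233-40072649, plus strand), cyclase-associated protein 1, which recharges monomers after severing, read 406 and 413 at 0 h, 434 and 455 at 0.5 h, 422 and 465 at 1.5 h, 583 and 514 at 3 h, 836 and 881 at 6 h, 1260 and 1380 at 24 h, 1142 and 1213 at 48 h, 1261 and 1143 at 72 h in CPM. Its libraries from 24 h were all above those at 6 h, with a change of 1.69 ± 0.10 at 24 h (adjusted p = 7.7e-09) and 1.55 ± 0.10 at 72 h (adjusted p = 1.5e-08). Exons of PPT1 overlap it on the other strand. TMSB10 (ENSG00000034510, chr2:84905625-84906675, plus strand), thymosin beta 10, a monomer-sequestering peptide, read 171 and 225 at 0 h, 162 and 169 at 0.5 h, 186 and 187 at 1.5 h, 345 and 290 at 3 h, 572 and 605 at 6 h, 645 and 746 at 24 h, 408 and 440 at 48 h, 421 and 380 at 72 h in CPM. It peaked at 24 h (1.81 ± 0.13, adjusted p = 6.1e-08) and fell by 0.71 to 48 h (adjusted p = 0.00222). Its homologue TMSB4X was called once, -0.42 ± 0.16 at 24 h, and lost that call without 0 h replicate 2 or either 24 h library. The TPM ratio of TMSB4X to TMSB10 therefore went from 0.914 and 0.820 at 0 h to 0.201 and 0.168 at 24 h and back to 0.479 and 0.413 at 72 h. PFN1 (profilin 1) was called at 6 h only (0.43 ± 0.16), and not without 0 h replicate 1 or 6 h replicate 2.

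All 8 genes of filament turnover and nucleation were called higher at 6, 24 and 72 h, beside 27.8%, 31.7% and 31.7% of all genes. GSN (ENSG00000148180, chr9:121207794-121332843, plus strand), gelsolin, a calcium-activated severing and capping protein, rose furthest. Gelsolin read 19.4 and 21.7 at 0 h, 17.2 and 18.5 at 0.5 h, 18.5 and 16.6 at 1.5 h, 45.3 and 38.0 at 3 h, 88.9 and 77.1 at 6 h, 161 and 162 at 24 h, 120 and 113 at 48 h, 137 and 128 at 72 h in CPM. The libraries at 0.5 and 1.5 h lay below both at 0 h, and all from 3 h lay above. The change was 2.02 ± 0.11 at 6 h (adjusted p = 3.3e-09), 2.98 ± 0.12 at 24 h (adjusted p = 8.2e-11) and 2.69 ± 0.11 at 72 h (adjusted p = 1.8e-10). CFL1 (ENSG00000172757, chr11:65823022-65862026, minus strand), cofilin 1, had the highest TPM of the role and moved least at 6 h and later times. It read 338 and 387 at 0 h, 333 and 327 at 0.5 h, 370 and 362 at 1.5 h, 547 and 409 at 3 h, 582 and 568 at 6 h, 508 and 557 at 24 h, 524 and 551 at 48 h, 480 and 498 at 72 h in CPM. The change was 0.67 ± 0.12 at 6 h (adjusted p = 3.0e-04) and 0.43 ± 0.12 at 72 h (adjusted p = 0.00708), and the latter was lost without 0 h replicate 1. Exons of MUS81 overlap CFL1 on the other strand.

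CORO1C (coronin 1C) and WDR1, which assist cofilin, were 2.12 ± 0.11 and 2.05 ± 0.11 at 6 h. The Arp2/3 subunits ARPC2 and ARPC5, parts of the branching nucleator, were 1.78 ± 0.08 and 0.99 ± 0.11. CAPG, a barbed-end capper, and DSTN, a cofilin relative, were highest at 24 h (1.58 ± 0.11 and 1.19 ± 0.11). Pseudogenes held 3.7 to 8.6% of the reads of DSTN and its copies.

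Set against 6 h, 12 members were higher at 72 h and 10 lower (background 31.6% and 25.6%), close to the shares of all genes. After removal of the GC trend 12 were higher and 19 lower, beside 32.2% and 30.6% of all genes. The 10 lower were ACTB, ACTG1, ZYX, VASP, LCP1, TPM3, TMSB10, WDR1, CORO1C and ARPC2, which fell by 0.31 (LCP1) to 2.35 (ACTG1). The 12 higher were TLN1, PTK2, FERMT3, ACTN1, ACTN4, LIMA1, PALLD, TPM1, MYL9, MYLK, CAP1 and GSN, from 0.21 ± 0.08 for PTK2 to 6.05 ± 0.20 for MYLK. Both actins were among the lower genes. Of the non-muscle myosin II role only the light chain gene MYL9 and the kinase gene MYLK were called, both higher. In summed TPM the 44 genes took 10600 and 11420 TPM at 0 h, 24810 and 25200 in the 6 h libraries, and 20570 and 21080 in those of 72 h. The actins accounted for 10320 and 11880 of the 6 h sums and 4213 and 5382 of those at 72 h. The non-muscle myosin II role rose from 1370 and 1302 at 0 h to 2820 and 2368 at 72 h. MYLK, summed over all its transcripts, held 184 and 201 of these 72 h sums.

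Transcript estimates added detail on which starts were used. These are the quantifier's split of reads between overlapping transcripts, with no error given, and an exact 0 can be a failed estimate. At TPM4 the group of starts at 16067021 to 16067700, which includes the start (16067538) whose promoter is printed above, held 0.313 and 1.07% of the gene's TPM at 0 h, 13.1 and 11.2% in the 6 h libraries, and 24.7 and 26.5% in those of 72 h. In level this was 0.281 and 0.972 TPM at 0 h and 217 and 238 TPM at 72 h. The main group of TPM4 starts, 16075675 to 16077021, also rose, from 64.7 and 68.8 TPM to 526 and 633 TPM. The share of the upstream group did not overlap between 0 h and any time from 3 h.

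At MYLK the transcripts in use differed between the early and late libraries. Up to 6 h its 0.786 to 1.56 TPM came from MYLK-217 and MYLK-219, annotated as retained introns, and from the MYLK-205 group. From 24 h 4 other groups appeared, each listed at 0 in all 10 earlier libraries. At 72 h MYLK-212 had 50.8 and 68.4 TPM, the MYLK-202 group 47.6 and 38.8 TPM, and the MYLK-216 group 28.0 and 21.2 TPM. The 5′ ends of the MYLK-220 group, at 123620514 to 123620626, surround the start of the promoter printed above, far inside the gene. This group had 4.90 and 5.30 TPM at 24 h and 45.9 and 53.5 TPM at 72 h, or 24.9 and 26.7% of the gene. Which protein each group encodes was not examined. The levels and changes given for MYLK count all groups together, so they are not those of the kinase transcripts alone.

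**Figure D4:**
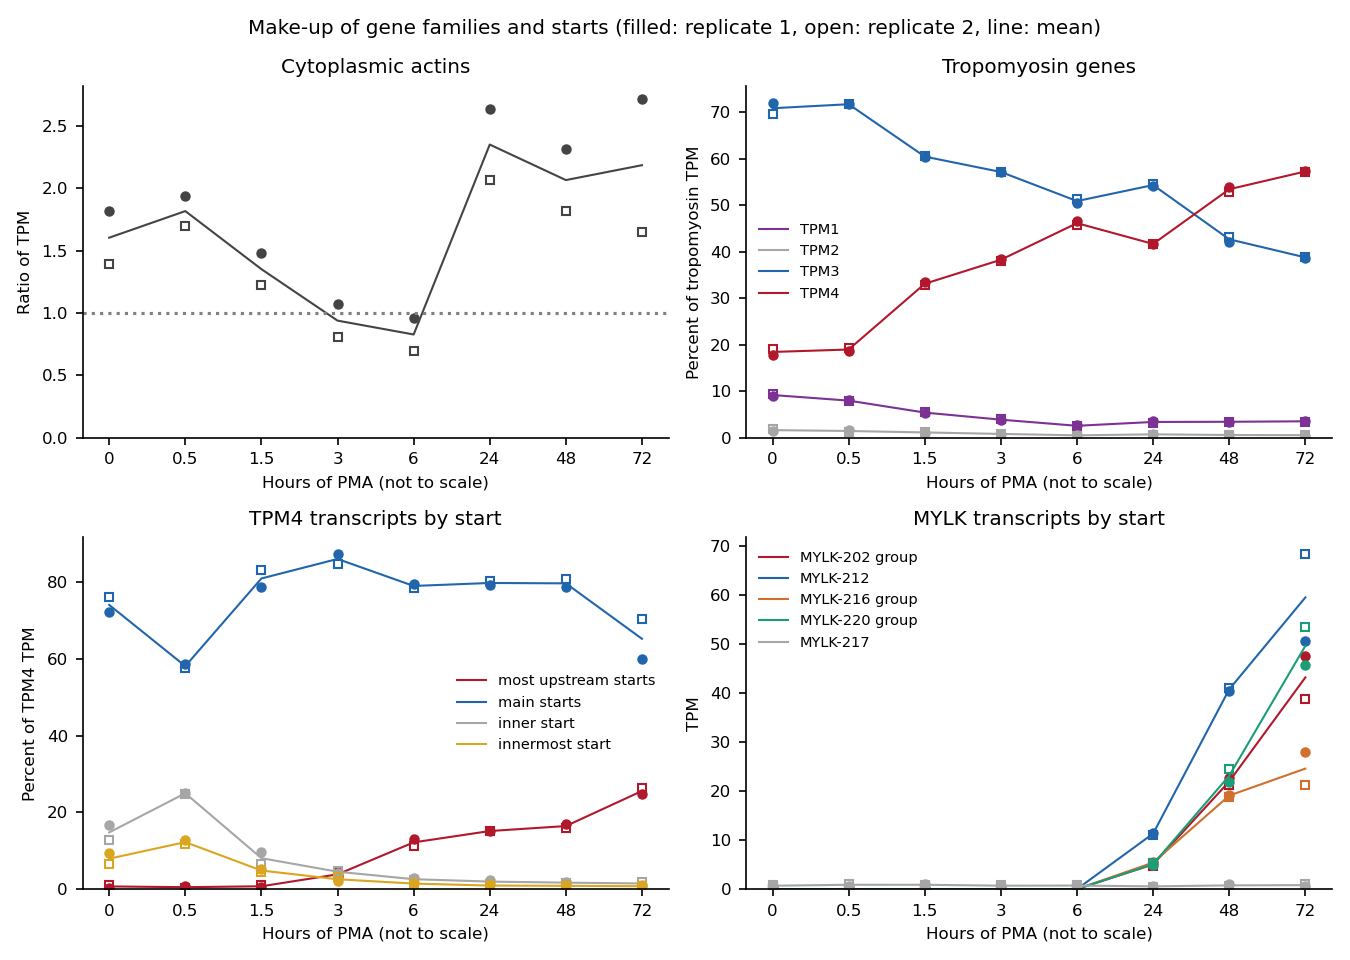
Make-up of the family by time of PMA, in TPM: ratio of ACTB to ACTG1, percent of tropomyosin TPM by gene, percent of TPM4 by group of starts, and TPM of MYLK by group of starts; filled symbols are replicate 1, open symbols replicate 2 and lines their mean. The actin ratio drops under 1 in both 6 h libraries, TPM4 overtakes TPM3 by 48 h, and the MYLK groups leave 0 at 24 h.

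FLNA passed through a short change of the same kind. The group at its main starts held 76.8 and 79.3% of FLNA TPM at 0 h, 50.5 and 51.3% in the 1.5 h libraries, and 86.0 and 78.9% in those of 72 h. CNN2 kept its main starts while it fell: they held 80.0 and 80.4% at 0 h and 76.4 and 78.6% at 72 h. Of the 7 members with a CArG box, TPM4, ACTG1, FLNA, ACTN1 and MYLK were called higher at 1 or more times and CNN2 lower. SRF was called lower at 6 h alone, a call lost under several alternatives as given above. Members with the box were thus called in both directions. Such calls are common, since 82.9% of all genes differed among the 8 time points.

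A further 75 genes of the same machinery, of which 71 were tested, were listed by function. At 0.5 h 1 of them was called higher and 0 lower: CCN1, a matricellular SRF target, at 1.37 ± 0.16 (adjusted p = 0.00105). At 6 h 45 were higher and 12 lower, and at 72 h 37 were higher and 10 lower, beside the percentages of all genes given above for these times. Nucleators of the Arp2/3, formin and WASP families counted 9 higher and 2 lower of 16 at 72 h, from the formin FMNL2 (4.31 ± 0.23, adjusted p = 1.8e-09) to WAS, the blood-cell activator of Arp2/3 (-1.49 ± 0.17, adjusted p = 4.8e-06).

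Capping and turnover genes outside the 44 counted 9 higher and 2 lower of 12 at 72 h. TWF1 (twinfilin 1) rose by 2.67 ± 0.21 (adjusted p = 1.3e-07), and CORO1A, the coronin of blood cells, stood at -1.89 ± 0.19 (adjusted p = 1.2e-06). Other adhesion genes counted 11 higher and 4 lower of 22. FERMT1 (kindlin 1) had 0 reads in both 0 h libraries and 0.859 ± 0.243 CPM (SD, n = 2) at 72 h, at least 9.11-fold higher when 0 h is set to a floor of 3 reads per library (0.0943 CPM), and it was called (adjusted p = 1.5e-04). EVL, a relative of VASP, stood at -1.43 ± 0.15 (adjusted p = 1.7e-06). Among 7 tested partners and targets of MRTF and SRF, 3 were higher and 1 lower at 6 h, but 0 were higher and 1 lower at 72 h, which was TAGLN (transgelin) at -0.59 ± 0.21 (adjusted p = 0.0289).

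Markers placed the libraries as the labels do, with shifts that ran beside the late changes. The 8 erythroid markers of K562 were all present and summed to 985 to 1979 CPM, with GATA1 at 107 and 155 CPM at 0 h. KLF1 among them read 43.8 and 61.4 CPM at 0 h and 2.90 and 2.84 CPM at 72 h. The 6 megakaryocyte markers summed to 61.6 to 104 CPM up to 3 h, 261 and 277 CPM at 6 h and 3159 to 6153 CPM from 24 h, mostly THBS1 and ITGB3, while PF4 stayed at or near 0. ITGA2B of the same list read 52.6 and 62.9 CPM at 0 h. Its 24 h libraries read 13.2 and 13.0 CPM, and those of 72 h 59.4 and 64.4 CPM. The 8 fibroblast and smooth muscle markers summed to 13.6 to 21.0 CPM up to 6 h and 127 to 277 CPM from 24 h, which was mostly COL1A1. From 0 h to 72 h PDGFRB went from 0.0614 and 0 to 16.6 and 17.7 CPM, COL1A2 from 5.34 and 6.89 to 19.7 and 15.1 CPM, and PDGFRA from 0.368 and 0.354 to 2.29 and 1.25 CPM. DES went from 6.48 and 7.69 to 1.87 and 2.28 CPM, DCN stayed between 1.09 and 2.46 CPM, COL3A1 did not exceed 0.161 CPM and LUM was at 0 in every library. Lymphoid markers summed to 6.23 to 18.8 CPM and monocyte and macrophage markers to 41.4 to 85.2 CPM, with C1QA, C1QB and MARCO at or near 0. LYZ made up most of the latter sum and went from 72.4 in both 0 h libraries to 36.5 and 34.5 CPM at 24 h, while CSF1R went from 0.0307 and 0.0966 to 6.62 and 6.83 CPM. The fibroblast sum was above its 0 h range from 24 h, as were MYLK and MYL9, and the megakaryocyte sum from 6 h, whereas GSN was already above its 0 h libraries at 3 h. The part of these shifts in the results was not tested.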

How the data were processed

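Total RNA of 16 K562 libraries, column-purified and DNase-treated, was depleted of ribosomal RNA and sequenced, per the labels' protocols. Per the file headers, each deposited table gives, for 177456 transcripts, an estimated count of reads, not normalized, and TPM, an abundance per length. The submitters' processing notes name Trim Galore 0.4.3, Salmon, HISAT2 2.1.0, SAMtools 1.9, deepTools 3.0.1, R 3.3.1, DESeq2 and DESeq 1.33.5, without roles. The Salmon version, the build behind the transcripts and the use of strand are not given in the sources used here.

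Transcripts were assigned to genes with GENCODE release 29 (GRCh38), and 94.1% matched. Gene counts were sums of the estimated counts of their transcripts, rounded. All 16 libraries were fitted together in edgeR 4.0.16 (R 4.3.3, limma 3.58.1) by time point, with TMM factors of 0.854 to 1.139, its default low-count filter, a prior count of 0.125 and the quasi-likelihood test. Benjamini-Hochberg adjustment ran over all 17559 tested genes within each contrast. A floor of 3 reads was 0.0623 to 0.128 CPM. TPM values, transcript shares and ratios were described without a test. The procedure was tested on simulated data.

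Full values were given for ACTB, ACTG1, SRF and MRTFA, for the called members with the largest rise and fall at each time against 0 h, for those of each role at 72 h with its member of highest TPM, and for members called in opposite directions. Other pathway genes were named where they had the largest called rise or fall of their group at 72 h, and CCN1 was chosen after its values were seen. A further group of these genes is not reported here. Members and lists were chosen with earlier results of these data known. Same-numbered libraries were not taken as pairs, since their deviations correlated at -0.12 to 0.21, over 0.1 in 14 of 28 pairs of time points. Alternatives covered scaling, filtering, DESeq2 1.42.0, TPM-derived counts, GC content, the replicate number, the libraries in the fit and each library left out.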

Additional observations from a re-analysis of the deposited data

How the results depend on the processing

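Counts of members called against 0 h from 6 h onward moved by less than 1.5 times under every alternative. In a fit of only the times compared the counts were 5 at 1.5 h (10 as reported), 18 at 3 h (28 as reported) and 13 from 0.5 to 1.5 h (4 as reported). The shares of all genes higher and lower in that fit were 4.16% and 2.74% at 1.5 h and 15.1% and 15.0% at 3 h. From 0.5 to 1.5 h they were 9.94% and 5.51%. After removal of a GC trend per library the counts were 10 from 0.5 to 1.5 h, 21 from 24 to 48 h (13 as reported) and 3 from 48 to 72 h (1 as reported). Beside these, 6.55% and 4.36% of all genes were higher and lower in the first step, 13.5% and 11.5% in the second, and 3.17% and 1.44% in the last. With that removal and the replicate block together the counts were 12, 24 and 5. The shares of all genes were then 7.72% and 5.85%, 14.9% and 14.3%, and 4.59% and 2.50%, so all genes shifted as well. With counts derived from TPM, 7 members were called from 24 to 48 h (6.61% and 3.22% of all genes) and 0 from 48 to 72 h (0.357% and 0.136%). The change of MYH10 at 72 h reversed to 0.086. Leaving out 1 library gave 0 to 5 calls at 0.5 h, 4 to 11 at 1.5 h, 2 to 3 from 0.5 to 1.5 h, 17 to 29 from 1.5 to 3 h, 4 to 7 from 24 to 48 h and 0 to 1 from 48 to 72 h; the lone library left is assumed to vary like the others. The cause of these shifts was not tested. With the replicate block alone the counts against 0 h were 0, 10, 29, 35, 35, 33 and 33 in order of time. Of all genes 0.194, 10.9, 22.8, 28.7, 32.65, 31.1 and 32.6% were then higher. The shares lower were 0.0228, 9.53, 21.2, 30.2, 27.5, 25.2 and 28.1%. The analysis over the whole course with only the times compared could not be run, because all times enter it, and its DESeq2 counterpart was the likelihood ratio test (41 members). Depth limits CNN3, with 1 to 15 reads per library, CALD1 and PALLD.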
